A study of Homo sapiens with 2 samples.

Results

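A panel of 58 genes of the cell cycle and of DNA replication was compared between SAS cells and eSAS cells. SAS is an established human line from a squamous cell carcinoma of the tongue. The eSAS cells are the SAS population left after 5 rounds of selection for large spheroids with Spheroid Catch, a filter tool with a removable mesh, so they derive from the same line, with no introduced genetic change named in the labels; whether the RNA came from cells grown from a single selected cell is not given in the sources used here. Both populations were grown in DMEM with 10% fetal bovine serum and antibiotics, RNA was taken during logarithmic growth, and 200 ng of total RNA from each was labelled with Cy3 and hybridised to its own 1-colour Agilent whole-genome microarray. The genes were picked by name, and 75 of the 41000 probes on the array belong to them. All 75 probes gave a signal well above background on both arrays and none was saturated, so all 58 genes were measured, among 19476 genes measured on both arrays. There was 1 array of each population and no replicate, so no test between the populations was possible, and precision is limited by the number of arrays.

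Cells copy their DNA once in S phase and divide in M phase, with the gap phases G1 and G2 between. In G1 the origin recognition complex, CDC6 and CDT1 load the MCM2 to MCM7 helicase onto origins, and cyclin-dependent kinases, each active only with a cyclin partner, later fire those origins and drive entry into mitosis. D-type cyclins with CDK4 or CDK6 phosphorylate the retinoblastoma protein RB1, which then releases E2F transcription factors, and the INK4 and CIP/KIP proteins inhibit these kinases. Tumour cells often lose or bypass this G1 control. Messages for replication proteins peak around the start of S phase, and those for mitotic cyclins, kinases and kinetochore proteins peak in G2 and M, so in RNA from many cells a lower level of a mitotic message in each cell and a smaller share of cells in mitosis cannot be told apart.

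Levels are given as the processed signal of the array, a linear brightness from which background has been removed. Ratios are log2 of eSAS over SAS after each array was divided by its 75th percentile (1242 for SAS, 1196 for eSAS). Among probes spotted repeatedly, the SD of this log2 ratio between spots was 0.080 (pooled over 211 probes), and between different probes of a gene it was 0.20 over all genes (5322 genes) and 0.10 over the 16 panel genes with at least 2 probes. These SDs describe variation within the pair of arrays and leave out variation between cultures. The squamous carcinoma label was checked with 10 epithelial genes, among them the keratin KRT5 and the transcription factor TP63, and all 10 were well above background on both arrays. Their levels were not uniform between the arrays, with log2 ratios from -0.63 (KRT5) to 0.16 (KRT18). The keratin KRT6A was dim (46.9 in SAS cells and 32.7 in eSAS cells). Of genes of other cell types, 1 of 6 fibroblast genes and 1 of 5 leukocyte genes (CD14) were well above background on each array, as were 2 of 4 endothelial genes in SAS cells and 1 in eSAS cells. The genes above background were COL1A1 in SAS cells only (15.2), LUM in eSAS cells only (29.6), VWF in both (86.0 and 77.1) and CDH5 in SAS cells only (17.0), beside CD14 (215 and 233), whereas COL1A2, COL3A1, DCN, PECAM1 and PTPRC were not above background on either array.

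Because many of these genes share short promoter elements, the bases upstream of 6 of them are shown, for genes near the ends of the ratios below and for E2F1, the transcription factor of S phase genes. Each line is the 150 bases that end just before the start site, 5′ to 3′ on the strand of the gene, from RefSeq on GRCh38.p14. The windows are chr15:59104996-59105145 on the plus strand for CCNB2, chr2:26785906-26786055 on the plus strand for CENPA, chr5:69167000-69167149 on the plus strand for CCNB1, chr18:657503-657652 on the plus strand for TYMS, chr20:33686386-33686535 on the minus strand for E2F1 and chr9:22009306-22009455 on the minus strand for CDKN2B. Capitals mark the letters CCAAT (the CCAAT box), TTTGAA or TTCGAA (letters of the cell cycle genes homology region, a repressor element of mitotic genes) and TTTCCCGC or TTTGGCGC (letters of an E2F site), read on either strand, so that a match on the other strand appears as its reverse complement.
CCNB2: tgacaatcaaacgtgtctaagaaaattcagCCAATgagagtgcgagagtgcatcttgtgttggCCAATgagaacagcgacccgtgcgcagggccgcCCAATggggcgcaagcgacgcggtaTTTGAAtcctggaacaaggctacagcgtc
CENPA: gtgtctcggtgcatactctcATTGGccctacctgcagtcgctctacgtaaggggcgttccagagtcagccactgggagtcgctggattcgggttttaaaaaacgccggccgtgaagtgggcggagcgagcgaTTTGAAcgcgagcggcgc
CCNB1: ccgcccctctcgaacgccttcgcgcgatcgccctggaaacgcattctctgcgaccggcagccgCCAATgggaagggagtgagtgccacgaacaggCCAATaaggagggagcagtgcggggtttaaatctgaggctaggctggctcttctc
TYMS: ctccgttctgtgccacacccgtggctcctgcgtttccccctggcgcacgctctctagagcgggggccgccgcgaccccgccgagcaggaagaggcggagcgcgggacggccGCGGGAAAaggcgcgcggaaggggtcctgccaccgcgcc
E2F1: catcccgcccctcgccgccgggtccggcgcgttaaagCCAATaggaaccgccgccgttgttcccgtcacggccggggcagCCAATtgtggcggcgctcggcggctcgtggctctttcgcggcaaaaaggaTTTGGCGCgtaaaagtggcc
CDKN2B: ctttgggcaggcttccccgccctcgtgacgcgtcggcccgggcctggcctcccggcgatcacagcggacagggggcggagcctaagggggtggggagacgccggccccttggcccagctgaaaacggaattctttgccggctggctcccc

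The window of CCNB2 holds CCAAT 3 times and TTTGAA once, and that of CENPA holds each of these once. The CCNB1 window holds CCAAT 2 times. An E2F match lies in the windows of TYMS and E2F1, and the CDKN2B window holds none of the letters searched. Over the whole 300-base promoters of the RefSeq table, 250 bases before and 50 after the start, 46 of the 58 genes had an entry. TTTGAA or TTCGAA was present in 14 of these 46 (30.4%) against 16.6% of all 27305 promoters, and in 10 of 13 genes of the mitotic groups described below against 2 of 16 replication genes. CCAAT was present in 30 of 46 (65.2%) against 35.7% of all promoters. The E2F letters were present in 13 of 46 (28.3%) against 2.31%, and in 9 of 16 replication genes against 1 of 13 mitotic genes. A match of letters is a description of the sequence and was not tested as a binding site.

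Most of the panel lay close to equal levels on both arrays. The median log2 ratio of the 58 genes was -0.037, with quartiles of -0.12 and 0.10, beside a median of -0.0012 and quartiles of -0.14 and 0.13 over all 19476 genes. The ratio was below 0 for 34 of the 58 genes (58.6%), against 50.3% of all genes. At a log2 ratio of 0.32 or more in size, the smallest difference counted, 1 gene was higher in eSAS cells (the kinase inhibitor CDKN2B), where the background over all genes was 9.15%, and 5 genes were lower (CCND2, CDKN1C, RB1, CCNB2 and CCNE1), where it was 11.9%. At 1.5-fold or more, 1 gene was higher (CDKN2B; background 3.19%) and 2 were lower (CCND2 and CDKN1C; background 4.98%). No panel gene reached 2-fold in either direction, where the background was 1.01% for higher and 1.37% for lower genes. These shares lie below or near the background. With the background subtracted by normexp fitted on all spots, the median of all genes moved to 0.68, that of the panel moved to -0.33, and the sign turned for 17 of 37 medians and gene ratios recomputed, so that setting is given below only for the counted genes whose sign turned.

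**Figure D1:**
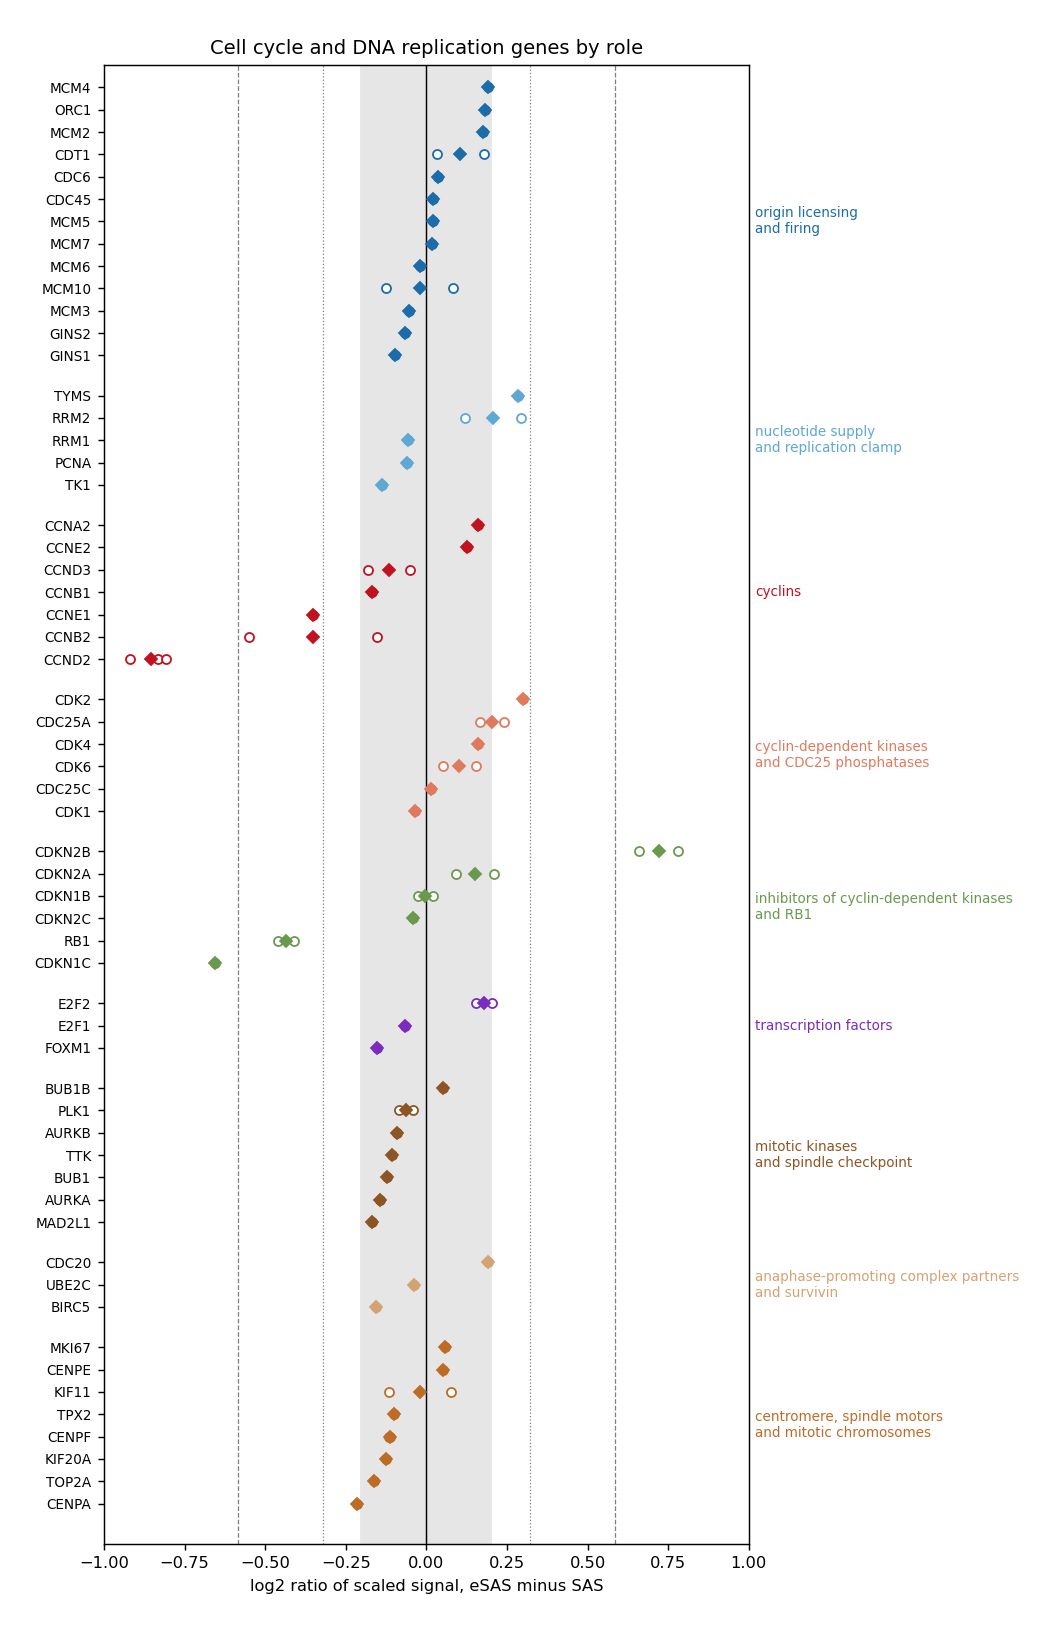
Log2 ratio of eSAS over SAS (x axis) for the 58 genes (y axis), grouped by role. Open circles are single probes, filled diamonds are gene means, the grey band is the SD of 0.20 between probes of a gene on either side of 0, and dotted and dashed lines mark log2 ratios of 0.32 and 0.58 (1.5-fold) in size. Most genes lie within the band, and CCND2 at -0.85 and CDKN2B at 0.72 are the extremes.

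The cyclins held the lowest ratio of the panel, that of CCND2, and had ratios of both signs. Their median was -0.17 over 7 genes, 3 of them were lower in eSAS cells by at least 0.32 (background 11.9%), and none was as much higher (background 9.15%). Cyclin D2 (CCND2), a partner of CDK4 and CDK6 in G1, was lowest of all and had 3 probes. Their signals on the SAS and eSAS arrays were 2359 and 1201 for the probe at chr12:4279592-4279651, 6964 and 3765 for that at chr12:4258280-4258339, and 12757 and 7013 for that at chr12:4284301-4284360 (all probe positions are in hg18, as the array files give them). The 3 log2 ratios were -0.92, -0.83 and -0.81, so the probes gave nearly the same ratio, and the gene mean of -0.85 is a 1.81-fold lower level in eSAS cells. This difference was more than 4 times the SD between probes of a gene. Of the other D-type cyclins, CCND3 had 2 probes at -0.18 and -0.052. CCND1, which is not in the panel, had 3 probes between 0.15 and 0.33, with a mean of 0.22, so the ratios of CCND2 and CCND1 lay on opposite sides of 0.

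Cyclin E1 (CCNE1), which activates CDK2 at the start of S phase, gave a signal of 3496 in SAS cells and 2639 in eSAS cells, a log2 ratio of -0.35 from 1 probe at chr19:35006946-35007005. Its relative CCNE2 gave 156 and 164, a ratio of 0.12. The S and G2 cyclin CCNA2 had a probe spotted 10 times, with a lowest, median and highest signal of 2624, 2774 and 2904 in SAS cells and 2851, 2980 and 3117 in eSAS cells. All 10 spots had a ratio above 0, with a mean of 0.16 ± 0.034 (SD between 10 spots). The ranges overlapped as unscaled signals and did not overlap after division by the 75th percentiles, the scale on which overlaps are given from here on.

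Of the mitotic cyclins, CCNB1 gave 27817 and 23855, a log2 ratio of -0.17. CCNB2 had 2 probes that differed. The bright probe at chr15:57204431-57204490 gave 20169 and 17457, a ratio of -0.15, close to that of CCNB1. The dim probe at chr15:57202412-57202471 gave 59.1 and 38.9, a ratio of -0.55, and it lies on the minus strand, opposite to the bright one. Whether the dim probe measures the CCNB2 message could not be settled from the files. The CCNB2 mean of -0.35 and its place among the 5 lower genes therefore rest on the dim probe. With the brightest probe of each gene, 4 genes were lower by 0.32 or more (share of all genes not counted). Under normexp with all spots the CCNB2 mean was 0.88 (0.20 relative to all genes). Both CCNB2 probes lie in a stretch of the slide (rows 450 to 510) that holds 11.5% of the probe spots and held 183 of the 194 marked non-uniform on the SAS array. Neither was itself marked, and the part of that stretch in their ratios was not tested.

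Among the cyclin-dependent kinases and the CDC25 phosphatases that activate them, 5 of 6 genes had a ratio above 0 and 1 below 0. Of all genes, 50.3% were below 0. None of the 6 reached 0.32 in size (background 9.15% higher and 11.9% lower). CDK2, the S phase kinase, was highest, with 10 spots at 437, 457 and 513 (lowest, median and highest) in SAS cells and 497, 541 and 611 in eSAS cells. Every CDK2 spot had a ratio above 0, and the mean was 0.30 ± 0.054 (SD between 10 spots), and the scaled ranges did not overlap, although the unscaled ones did at their edge. CDC25A, the phosphatase of the G1 to S step, had 2 probes, which gave 971 and 1048 and, for the other, 3755 and 4272. Their ratios of 0.16 and 0.24 differed by less than the SD between probes. CDK4 gave 15918 and 17116, a ratio of 0.16, and the CDK6 probes had ratios of 0.15 and 0.051. The mitotic kinase CDK1 had 10 spots with a lowest, median and highest signal of 11847, 12469 and 12912 in SAS cells and 11078, 11618 and 12070 in eSAS cells. Its mean ratio was -0.037 ± 0.018 (SD between 10 spots) and its signals overlapped. CDC25C, which activates CDK1, was at 0.014.

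The inhibitors and RB1 held the highest ratio of the panel and the lowest outside the cyclins. CDKN2B encodes the INK4 protein p15, which blocks CDK4 and CDK6. One CDKN2B probe, at chr9:21994945-21995004, gave 317 in SAS cells and 525 in eSAS cells, and the other, at chr9:21998979-21999038, gave 28.2 and 43.0. The ratios of 0.78 and 0.66 were alike, and the mean of 0.72 is a 1.65-fold higher level in eSAS cells. Without background correction it was 0.50, short of 1.5-fold. Of the upstream windows shown above, only that of CDKN2B held none of the letters searched. Over the whole promoters, however, panel genes with ratios of both signs also held none, among them RB1 (-0.43), CCNE1 (-0.35) and CDK4 (0.16). The lack of these letters was not particular to CDKN2B, and its part in the ratio was not tested. The neighbouring gene CDKN2A, which encodes p16 and the alternative product ARF, was bright and had a gene mean of 0.15. Its probe with 6 usable spots had a lowest, median and highest signal of 10188, 10318 and 11964 in SAS cells and 10337, 10439 and 12737 in eSAS cells, with overlapping ranges and a ratio of 0.091 ± 0.031 (SD between 6 spots). A second CDKN2A probe gave 40351 and 44950, a ratio of 0.21. The third INK4 gene, CDKN2C (p18), was at -0.042.

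CDKN1C, which encodes the CIP/KIP inhibitor p57, was at the other end. Its single probe at chr11:2861479-2861538 gave 262 in SAS cells and 160 in eSAS cells, a log2 ratio of -0.66 or a 1.58-fold lower level. Without background correction it was -0.50, short of 1.5-fold, and under normexp with all spots it was 1.11 (0.43 relative to all genes), so its direction depended on the background correction. CDKN1B (p27) was level, with 10 spots at 659, 720 and 763 in SAS cells and 636, 701 and 755 in eSAS cells, a ratio of 0.019 ± 0.043 (SD between 10 spots), and a second probe at -0.027. CDKN1A (p21), which is not in the panel, had 2 probes with ratios of 0.51 and 0.57 and a mean of 0.54. The 3 CIP/KIP genes thus spanned a lower, a level and a higher ratio.

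RB1, the retinoblastoma gene that restrains E2F, was lower on both of its probes. The probe at chr13:47953846-47953905 had 6 usable spots, with a lowest, median and highest signal of 3737, 3931 and 4010 in SAS cells and 2719, 2858 and 2913 in eSAS cells. No eSAS spot reached the lowest SAS spot, and the ratio was -0.41 ± 0.025 (SD between 6 spots). The other probe, at chr13:47832236-47834982, gave 225 and 158, a ratio of -0.46. The gene mean of -0.43 is a 1.35-fold lower level, and under normexp with all spots it was 0.23 (-0.45 relative to all genes). RB1 lies on chromosome 13, where the median ratio of all 344 genes placed there was -0.31 and 83.4% of them were below 0. Within 1 Mb of RB1, 10 of 14 neighbouring genes were below 0 and their median was -0.20. The part of this chromosome-wide difference in the RB1 ratio was not tested.

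**Figure D2:**
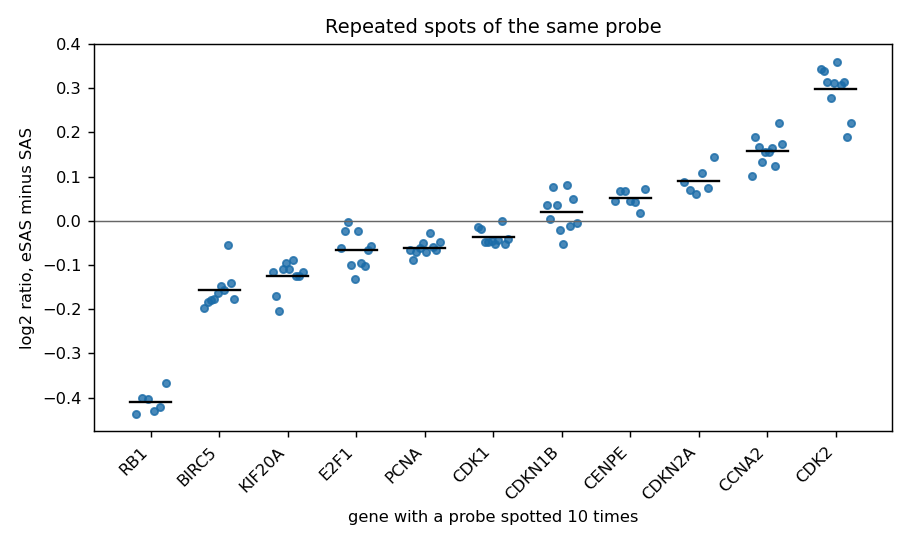
Log2 ratio of eSAS over SAS (y axis) of each usable spot for the 11 panel genes with a probe spotted 10 times (x axis), with the mean as a line. Spots of a probe are spread over the slide and are technical repeats; those of RB1 lie between -0.44 and -0.37 and those of CDK2 between 0.19 and 0.36.

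The 3 transcription factors had small ratios of both signs. E2F1, released by RB1 to turn on S phase genes, had 10 spots with a lowest, median and highest signal of 1724, 1970 and 2110 in SAS cells and 1590, 1790 and 1942 in eSAS cells, with overlapping ranges and a ratio of -0.066 ± 0.042 (SD between 10 spots). Its relative E2F2 had 2 probes with ratios of 0.20 and 0.15. FOXM1, which drives mitotic genes, gave 5312 and 4595, a ratio of -0.15.

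The genes that license and fire origins were level as a group. Over 13 of them the median was 0.019 and the range was -0.099 to 0.19. None reached 0.32 in size (background 9.15% higher and 11.9% lower). The MCM2 to MCM7 subunits, which form the helicase as 1 complex, had a median of 0.019 and lay between -0.054 (MCM3) and 0.19 (MCM4). MCM4 gave 10419 and 11452, and MCM2, next in order at 0.17, gave 11365 and 12354. ORC1, the largest subunit of the origin recognition complex, gave 631 and 690, a ratio of 0.18. The loading factors CDC6 and CDT1 were at 0.036 and 0.11, and MCM10, a factor of helicase activation, was at -0.021 from 2 probes on opposite sides of 0. GINS1 (-0.099) and GINS2 (-0.066), parts of the active helicase, were the lowest, and CDC45, their partner, was at 0.020. Neighbours in this order differed by less than the SD between probes of a gene.

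In the group of nucleotide supply and the replication clamp, 2 genes stood above the others. TYMS, the thymidylate synthase that makes dTMP, gave 12195 and 14310, a log2 ratio of 0.29, and is the gene of this group whose window with an E2F match is shown above. RRM2, the regulated subunit of ribonucleotide reductase, had 2 probes, which gave 2599 and 3068 and, for the other, 5572 and 5831. Their ratios were 0.29 and 0.12, with a mean of 0.21, and the first lies in rows 450 to 510 together with the TYMS probe. RRM1, the large subunit, was at -0.058, and TK1, the thymidine kinase of the salvage route, was at -0.14. The clamp PCNA had 10 spots at 18103, 18560 and 19982 in SAS cells and 16414, 17111 and 18442 in eSAS cells (lowest, median and highest), a ratio of -0.061 ± 0.016 (SD between 10 spots), with overlapping signals. The 18 replication genes of these groups together had a median of 0.019, and 8 of them were below 0 (background 50.3%). The sign of that median depended on the scaling, with values from -0.035 to 0.053 under the alternatives other than normexp with all spots.

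Genes of mitosis lay slightly lower in eSAS cells as a group. Over the 18 genes of 3 mitotic groups the median was -0.10, the range was -0.21 to 0.19, and 14 were below 0 (background 50.3%). None reached 0.32 in size (background 9.15% higher and 11.9% lower). The group median stayed below 0 under every scaling tried. Of the kinases and spindle checkpoint genes, 6 of 7 were below 0, with a median of -0.11. MAD2L1, which holds back anaphase until kinetochores are attached, gave 6296 and 5399, a ratio of -0.17. The Aurora kinases AURKA and AURKB were at -0.14 and -0.091, the checkpoint kinases BUB1 and TTK at -0.12 and -0.11, and the Polo kinase PLK1 at -0.064. BUB1B, which encodes BUBR1, was the exception at 0.050.

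Of the anaphase-promoting complex partners and survivin, CDC20, the activator of that complex, gave 4563 and 5011, a ratio of 0.19 and the highest of the mitotic genes. UBE2C, the ubiquitin-conjugating enzyme of the complex, was at -0.037. BIRC5 encodes survivin, a part of the Aurora B complex, and had 10 spots with a lowest, median and highest signal of 35945, 36687 and 38966 in SAS cells and 30749, 31391 and 33416 in eSAS cells. The BIRC5 ranges did not overlap, and its ratio was -0.16 ± 0.040 (SD between 10 spots).

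Among the 8 genes of centromere, spindle motors and mitotic chromosomes, 6 were below 0 (background 50.3%), with a median of -0.11. CENPA, the histone H3 variant of centromeres, was lowest of the 18 mitotic genes at 2174 and 1805, a ratio of -0.21, and its upstream window holds CCAAT and TTTGAA. The 300-base promoter of CDC20, the highest mitotic gene, holds both as well. KIF20A, a kinesin of cytokinesis, had 10 spots at 2066, 2179 and 2311 in SAS cells and 1835, 1926 and 2016 in eSAS cells and a ratio of -0.13 ± 0.035 (SD between 10 spots), with ranges that overlapped at their edge after scaling but not before. TOP2A, the topoisomerase that untangles chromosomes, was at -0.16, CENPF, a kinetochore protein, at -0.11, and TPX2, an activator of AURKA, at -0.10. The kinesin KIF11 was at -0.019. The kinetochore motor CENPE had 7 usable spots at 3180, 3297 and 3416 in SAS cells and 3203, 3298 and 3394 in eSAS cells, which overlapped, with a ratio of 0.051 ± 0.019 (SD between 7 spots). MKI67, the source of the Ki-67 proliferation marker, gave 1300.3 and 1304 and was level at 0.059.

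**Figure D3:**
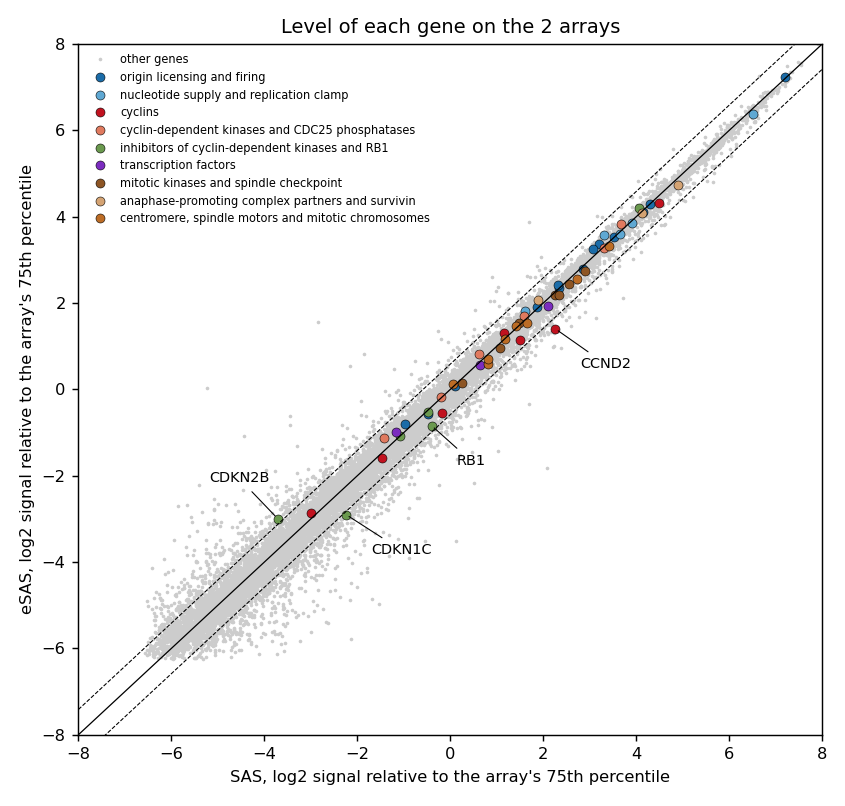
Log2 signal relative to the 75th percentile of the array in eSAS cells (y axis) against SAS cells (x axis) for all genes (grey) and the 58 panel genes (coloured by role). The solid line marks equal levels and the dashed lines 1.5-fold; CCND2, CDKN1C and CDKN2B lie past them and RB1 lies inside, with the other panel genes.

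To see whether phase-specific genes outside the panel gave the same picture, 2 further lists widely used to score cell cycle phase in single cells were read. The S phase list had 43 measured genes with a median of 0.019, and the 31 that are not in the panel had a median of -0.0044. As with the replication genes, the sign of the list's median depended on the scaling. Its values ran from -0.035 to 0.053 under the alternatives other than normexp with all spots. The G2 and M phase list had 54 measured genes with a median of -0.094, of which 37 were below 0, and its 37 genes outside the panel had a median of -0.091, with 24 below 0 (background 50.3%). At a log2 ratio of 0.32 or more in size, no gene of either list was higher (background 9.15%), and 1 of the S phase list and 2 of the G2 and M phase list were lower (background 11.9%).

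Of the S phase genes outside the panel, the lowest was POLA1, the catalytic subunit of the primase-bound DNA polymerase, at 5344 and 2957 with a ratio of -0.80. It was followed by POLD3 at -0.24 and CHAF1B at -0.14, a polymerase delta subunit and a chromatin assembly factor. The highest were TIPIN at 0.25, UHRF1 at 0.20 and UNG at 0.16, which act in fork protection, maintenance of DNA methylation and removal of uracil. Of the G2 and M genes outside the panel, the spindle protein CKAP2 was lowest at -0.56 (2 probes at -0.58 and -0.55), followed by the centrosome kinase NEK2 at -0.28 and by CKAP2L at -0.21. HMMR, KIF20B and CKS1B were highest at 0.14, 0.13 and 0.12.

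**Figure D4:**
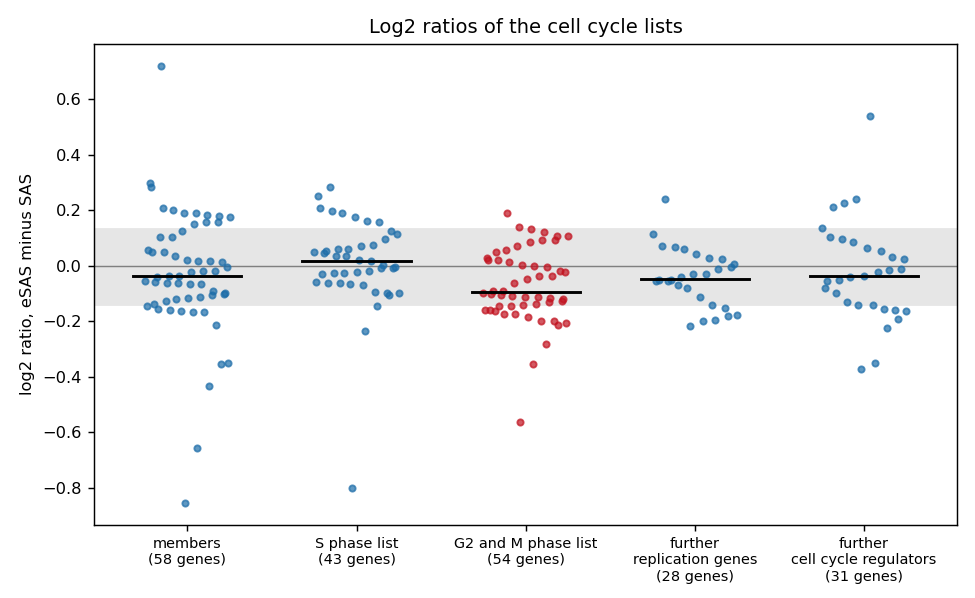
Log2 ratio of eSAS over SAS (y axis) of each gene in the panel and in the 4 further lists (x axis, with the number of measured genes), with the median of each as a line. The G2 and M phase list is in red and the grey band holds the middle quartiles of all genes, -0.14 to 0.13. The median of the G2 and M phase list, -0.094, is the lowest of the 5.

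Further genes of replication and of cell cycle control were read in the same way. Of 29 further replication genes, 28 were measured, with a median of -0.046. None reached 0.32 in size (background 9.15% higher and 11.9% lower). The clamp loader subunits RFC3, RFC5 and RFC1 were lowest at -0.22, -0.20 and -0.20, and the polymerase delta subunit POLD2, the origin subunit ORC2 and the polymerase epsilon subunit POLE3 were highest at 0.24, 0.12 and 0.070. Of 33 further regulators, 31 were measured, with a median of -0.037, 1 higher by at least 0.32 (background 9.15%) and 2 as much lower (background 11.9%). The higher gene was CDKN1A, and PKMYT1, an inhibitory kinase of CDK1, followed at 0.24. The lower genes were the checkpoint kinase CHEK2, at 556 and 413 with a ratio of -0.37, and TFDP1, the partner of E2F proteins in DNA binding, at -0.35 from 2 probes. FZR1, an activator of the anaphase-promoting complex, was next at -0.23.

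Several of the lower genes share a chromosome. By the hg18 positions of their probes, 4 genes of the panel and the further lists lie on chromosome 13, namely CKAP2 (-0.56), RB1 (-0.43), TFDP1 (-0.35) and RFC3 (-0.22), and all 4 were below 0. Of all 344 genes placed on chromosome 13, 83.4% were below 0 and the median was -0.31. POLA1 is the only panel or list gene on chromosome X, where the median of all 629 genes was -0.48 and 82.8% were below 0. The medians of the other chromosomes lay between -0.052 and 0.028. The genes within 1 Mb of CCND2 on chromosome 12 (13 genes), of CDKN1C on chromosome 11 (32 genes), of CCNE1 on chromosome 19 (9 genes) and of CDKN2B on chromosome 9 (15 genes) had medians of -0.0046, 0.094, -0.080 and 0.023. Those below 0 numbered 7, 8, 5 and 7, in the same order. Around CCNB2 on chromosome 15 the median was -0.11, with 12 of 14 neighbours below 0, beside 55.8% of all genes on that chromosome. With the genes of chromosomes 13 and X left out, the median of the panel and of each list moved by less than the SD between spots. Few genes of the panel and lists were left out and no gene ratio was recomputed, so a larger move could hardly have arisen. The part of these chromosomes in the results was not tested.

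**Figure D5:**
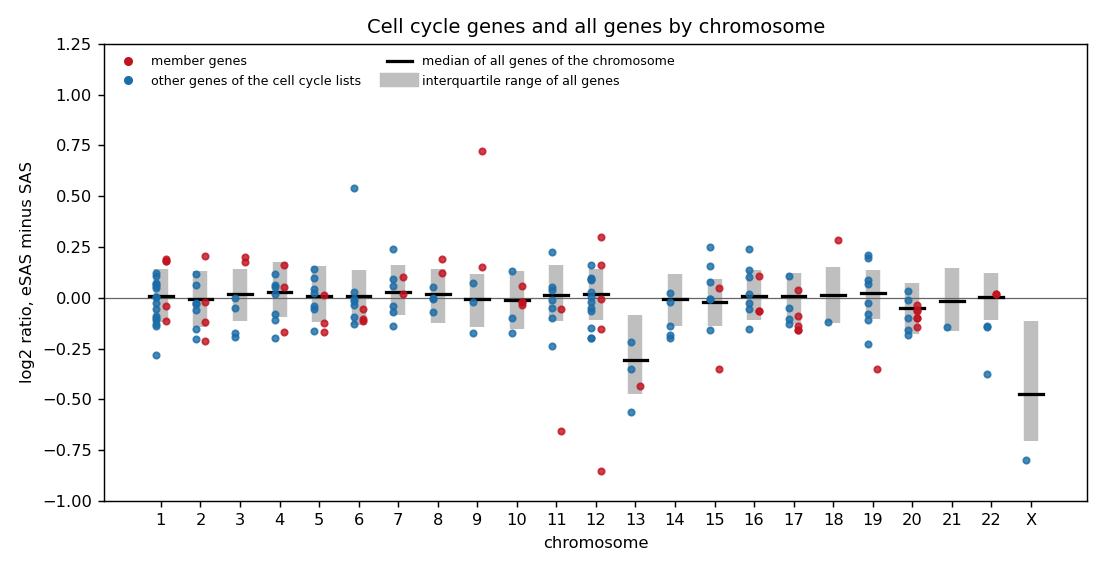
Log2 ratio of eSAS over SAS (y axis) of panel genes (red) and of other genes of the cell cycle lists (blue) by chromosome (x axis), with the median (line) and the interquartile range (grey) of all genes there. Chromosomes 13 and X have medians of -0.31 and -0.48. Every cell cycle gene plotted on them is below 0, as are 83.4% and 82.8% of all genes there.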

How the data were processed

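Each population, SAS and eSAS, was measured on 1 microarray of total RNA. The deposited intensity values are the output of Agilent Feature Extraction 10.7.3.1, named in the submitters' processing notes; the authors' processed signal had background and spatial trends removed and was not scaled between arrays. A deposited series table of intensity was equal to the processed signal in all 45015 spots (relative tolerance 1e-05). The study's methods name no scaling for these arrays.

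The processed signal was taken as log2 after division by its 75th percentile on each array. Of 43376 probe spots, those marked non-uniform or as population outliers on either array were left out (11 of the 174 panel spots on an array). Spots were averaged per probe, and probes with more than 50 percent of spots well above background on both arrays (26659 of 41000) were averaged per gene. Panel genes were found by the name on the array, where CDK1, ORC1 and CDC45 have older names; of all probes, 23958 matched a RefSeq accession of GRCh38.p14, 2755 a current symbol and 1032 an older symbol, and 13255 kept the array's name. The genes, lists and settings were chosen with earlier results of these data known.

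Signals and ratios are given for the 8 panel genes at each end, for those with repeated spots and for probes of a gene that differ by 0.5 or more (none did). Ratios are given for the 3 genes at each end of the further lists outside the panel, and for CCND1 and CDKN1A. Of these, only POLA1 and CHEK2 also have signals. No test between populations was made. Genes at or past a log2 ratio of 0.32 and at or past 1.5-fold and 2-fold were counted beside their share over all genes. A value was said to move under another setting when it changed by more than the SD between spots of a probe, and a count when it changed by more than 1.5 times. The alternatives were other scaling, background correction, pixel summary, filters, naming, probe rules and sources. Genes without those on chromosomes 13 and X were added after the data were seen. Python 3.11.15, numpy 2.4.6, pandas 2.3.3, R 4.3.3 and limma 3.58.1 were used, and the calculation was tested on simulated data.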

Additional observations from a re-analysis of the deposited data

How the results depend on the processing

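Of 44 results, none moved under cyclic loess, quantile normalization, no scaling, marked spots kept, the series table, probes added by accession or a filter on at least 1 array. Nor did any of the 41 that had a value without chromosomes 13 and X, a setting added after the data were seen. Some of these settings could hardly have moved a result. The series table equals the processed signal in every spot, and leaving out these chromosomes recomputed no gene ratio. Without scaling, every ratio shifted by the same amount, which was below the SD between spots. That limit of 0.080 is larger in size than the medians of the panel (-0.037) and the S phase list (0.019). Of 37 medians and gene ratios, the sign turned for 3 without scaling and 2 under quantile normalization. It turned for 1 under cyclic loess, 1 with marked spots kept and 1 of 34 without chromosomes 13 and X. The share of all genes at each fold was counted only with the main processing, so the panel counts under other settings stand without a background. Centring on the median gave 2 panel genes higher and 3 lower at a log2 ratio of 0.32. At 1.5-fold, no background correction, median pixels and normexp without marked local backgrounds each gave 0 higher and 1 lower, and median pixels gave 2 higher at 0.32. In these 3 settings CDKN2B lay between 0.40 and 0.50, CDKN1C between -0.52 and -0.49 and CCNB2 between -0.20 and -0.14. Without rows 450 to 510, 54 panel genes remained (CCNB2, TYMS, MCM2 and AURKB had no probe elsewhere) and RRM2 was 0.12, as with the brightest probe, which put CCNB2 at -0.15. With no filter on dim probes the medians of chromosomes 13 and X were -0.18 and -0.19.

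Normexp fitted on all spots moved the median of all genes to 0.68. It gave medians of -0.33 for the panel, -0.34 for the S phase list and -0.26 for the G2 and M phase list (relative to all genes -1.01, -1.02 and -0.94). At 0.32, 9 panel genes were higher and 29 lower, and at 1.5-fold 8 and 17. The share of all genes was not counted under normexp, so these counts are not read as a result about the panel. The sign turned for 17 of 37 medians and gene ratios, among them CDKN1C (1.11), RB1 (0.23), CCNB2 (0.88), TYMS (-0.23), MCM4 (-0.34) and the medians of chromosomes 13 and X (both 0.42). The cause was not tested.

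No paired analysis was possible because each population had a single array. Dim probes, such as those of CDKN2B, CDKN1C and the second of CCNB2, moved most, and single arrays give no spread between cultures.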

Other observations

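The letters found in the promoters were also set beside the ratios, as a description with genes sharing both arrays. Over the 46 panel genes with a promoter entry, the 14 with TTTGAA or TTCGAA had a median log2 ratio of -0.061 and the others 0.017. With CCAAT the median was -0.056 and without it 0.077. With the E2F letters it was -0.020 and without them -0.021. No test was made of these differences, and the mitotic genes make up most of the first set.

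CDKN2A and CDKN2B are neighbours on chromosome 9. Of the 15 genes within 1 Mb of CDKN2B, 1 was lower by a log2 ratio of 0.32 or more (background 11.9%). None was as much higher (background 9.15%). The next highest of them was at 0.31, against 0.72 for CDKN2B.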
